A study of Mus musculus with 22 samples.

Results

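Cytochrome P450 genes encode heme enzymes that insert an oxygen atom into lipids, hormones, vitamins and foreign compounds. The genes described here are the rows of the RNA-seq count table of testes whose symbol starts with Cyp and a digit, without *Cyp11a1*, *Cyp17a1*, *Cyp51* and *Cyp26b1*. They are 70 of the 74 such rows, and of 17931 gene symbols in all. The aim of the rule was to set aside steroid synthesis, but it kept 4 genes of steroid hormone synthesis, *Cyp11b1*, *Cyp11b2*, *Cyp19a1* and *Cyp21a1*, and these are described as such below. The P450 genes are few reads of a testis library, between 2231 and 3442 counts of the 16674678 to 19742726 in each.

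Whole testes of 7-month-old male mice were compared between 3 wild-type (WT) animals, proven fertile breeders, and 3 age-matched littermates with constitutive loss of MLX (MLX KO). MLX is a transcription factor that binds DNA as a dimer with MondoA, ChREBP or MNT. The KO allele lacks exons 3 to 6, which hold the DNA-binding and dimerization region, and was made in 129S4 embryonic stem cells. The animals received no treatment, and the libraries carry the numbers 1 to 3 of their pair. The *Mlx* gene had 128, 96 and 98 counts in WT1, WT2 and WT3 and 94, 109 and 102 in KO1, KO2 and KO3. The count covers the whole gene, including exons that remain in the allele, so it does not check the genotype labels.

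P450 enzymes of the endoplasmic reticulum take electrons from P450 oxidoreductase (*Por*), and those of mitochondria from the ferredoxin chain (*Fdxr* and *Fdx1*). Families CYP1, CYP2 and CYP3 are known for foreign compounds, CYP4 and CYP2J for fatty acids and eicosanoids, and others act on a defined substrate such as an oxysterol, vitamin D or retinoic acid. In the testis, P450 enzymes are best known from Leydig cells, where they make androgens, and from the breakdown of retinoic acid around the germ cells.

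Upstream flanks are shown for those P450 genes past the threshold of the test whose flank held a motif searched, because MLX dimers are known to bind the E-box CACGTG and the dioxin receptor *Ahr* binds a site with the core GCGTG. The 250 bases before a RefSeq transcript start were searched on both strands (GRCm38.p6; the E-box is its own reverse complement, and GCGTG reads as CACGC on the other strand). Capitals mark the matches, and no 2 of them overlapped.
*Cyp2j6*: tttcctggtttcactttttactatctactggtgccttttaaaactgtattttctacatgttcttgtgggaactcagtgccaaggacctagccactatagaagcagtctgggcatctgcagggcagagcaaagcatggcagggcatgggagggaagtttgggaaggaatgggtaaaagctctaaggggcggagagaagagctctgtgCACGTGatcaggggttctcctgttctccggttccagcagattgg
*Cyp4v3*: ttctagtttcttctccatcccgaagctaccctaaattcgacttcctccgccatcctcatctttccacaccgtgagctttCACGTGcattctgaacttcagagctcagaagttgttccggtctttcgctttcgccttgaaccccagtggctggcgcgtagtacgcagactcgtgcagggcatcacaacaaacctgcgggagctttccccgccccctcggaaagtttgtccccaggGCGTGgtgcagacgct
*Cyp1b1*: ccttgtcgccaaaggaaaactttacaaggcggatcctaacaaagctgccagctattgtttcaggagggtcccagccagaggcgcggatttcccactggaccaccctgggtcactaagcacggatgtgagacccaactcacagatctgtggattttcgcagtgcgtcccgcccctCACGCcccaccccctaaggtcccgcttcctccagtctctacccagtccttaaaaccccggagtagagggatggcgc
*Cyp20a1*: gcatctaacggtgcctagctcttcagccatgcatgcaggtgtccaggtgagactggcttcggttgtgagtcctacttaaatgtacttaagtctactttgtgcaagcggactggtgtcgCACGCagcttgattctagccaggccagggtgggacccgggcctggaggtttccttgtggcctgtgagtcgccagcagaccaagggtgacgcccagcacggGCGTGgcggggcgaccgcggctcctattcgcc
*Cyp4f14*: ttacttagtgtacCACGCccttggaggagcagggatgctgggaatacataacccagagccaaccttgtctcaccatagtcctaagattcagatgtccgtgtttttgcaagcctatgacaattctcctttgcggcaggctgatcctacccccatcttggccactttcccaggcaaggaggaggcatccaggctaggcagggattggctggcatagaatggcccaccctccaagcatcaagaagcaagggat
These flanks lie at chr4:96553652-96553901 (minus strand), chr8:45333164-45333413 (minus strand), chr17:79715062-79715311 (minus strand), chr1:60343050-60343299 (plus strand) and chr17:32917357-32917606 (minus strand). The transcript used for *Cyp2j6* starts inside the gene's span, which runs to 96564305, so its whole flank lies within the gene and can be transcribed. That of *Cyp4f14* starts 20 bases inside the gene's outer end, so part of its flank can be transcribed. A flank was found for 55 of the 70 genes and for 9 of the 11 past the threshold, without *Cyp21a1* and *Cyp2d22*. CACGTG was present in 2 of the 55 (3.64%), *Cyp2j6* at 44 and *Cyp4v3* at 171 bases before the start, and in 6.86% of all 27025 genes with a flank. GCGTG was present in 14 of the 55 (25.5%) and in 30.9% of all genes. *Cyp1b1*, known as a target of *Ahr*, held it at 76 bases before the start, *Cyp20a1* at 132 and 32, *Cyp4f14* at 237 and *Cyp4v3* at 16. Among the 22 P450 genes both tested and with a flank, CACGTG was present in 2 (9.09%) and GCGTG in 7 (31.8%), and among the 9 past the threshold in 2 and 4. The shares thus lay on either side of those of all genes depending on which P450 genes were counted, and a match of letters is not a binding site.

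In MLX KO testes, 10 P450 genes rose and 1 fell. *Cyp27a1*, *Cyp21a1*, 5 genes of fatty acid and eicosanoid metabolism (*Cyp2j6*, *Cyp4f13*, *Cyp4f14*, *Cyp4f15* and *Cyp4v3*), *Cyp1b1*, *Cyp2d22* and *Cyp20a1* were higher, and *Cyp2a12* was lower. Genes were tested with the quasi-likelihood test of edgeR, and p-values were adjusted by the Benjamini-Hochberg method over all 14640 genes with enough counts, with a threshold of 0.05. Of the 70 genes, 28 had enough counts to be tested and 42 did not, so the counts below hold for the expressed genes of the family. Of the 28, 35.7% were higher, against 24.8% of all genes tested, and 3.57% were lower, against 20.6%. In either direction the share was 39.3%, below the 45.4% of all genes. The median log2 fold change (LFC, KO over WT) was 0.17 for the 28 genes and 0.03 for all genes, and 16 of the 28 had an LFC above 0. All 10 genes that rose were higher in KO in 3 of 3 littermate pairs, and *Cyp2a12* was lower in 3 of 3. In CPM, the count scaled to a common library size after TMM normalization, the groups did not overlap for 12 of the 28, the 11 genes past the threshold and *Cyp2f2*, against 56.2% of all genes tested. Where groups do not overlap, any pairing gives 3 of 3, so the pair counts add no separate support for the 11 genes. The plot of fold changes by role gives the LFC of every gene tested.

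**Figure D1:**
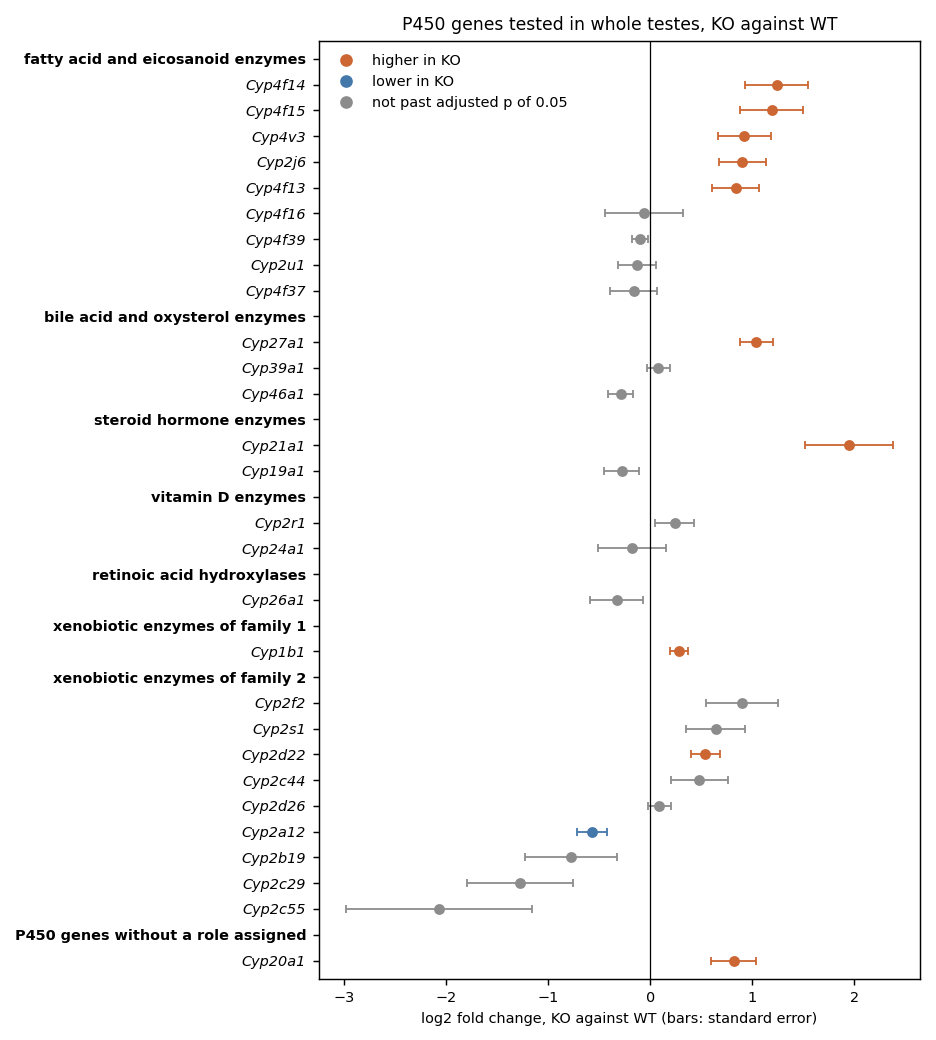
LFC of the 28 P450 genes tested, MLX KO against WT whole testes (n = 3 each), ordered by role. Points are the LFC and bars its standard error, orange higher and blue lower in KO at an adjusted p of 0.05, gray not past it. Fatty acid enzymes form a group of 5 with LFC from 0.84 to 1.24 and a group of 4 between -0.16 and -0.06.

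The counts depended on the tool and on how the littermate pair was treated. With a block for the littermate pair, edgeR gave 11 genes higher and 3 lower (25.5% and 20.5% of all genes). DESeq2 with the block, in which 32 of the P450 genes had an adjusted p, gave 3 higher, *Cyp27a1*, *Cyp21a1* and *Cyp4f14*, and 0 lower. Over all genes these shares were 14.5% and 15.7%, and 30.2% in either direction. The 3 of 32 that were higher thus made a smaller share than among all genes, the reverse of the main edgeR result. At an unadjusted p under 0.05 in that fit, 8 P450 genes were higher and 1 lower. The share of all genes at that looser level was not computed, so this count cannot be set beside other genes. DESeq2 without the block, in which 41 of the P450 genes had an adjusted p, gave 8 higher and 1 lower (17.5% and 18.6% of all genes, 36.1% in either direction). *Cyp27a1*, *Cyp21a1* and *Cyp4f14* were past the threshold in all 14 alternative analyses. The other genes that rose, and *Cyp2a12*, had adjusted p between 0.0624 and 0.207 in DESeq2 with the block, given below for each.

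Of 22 fatty acid and eicosanoid genes, 9 were tested, 5 rose and none of the 9 fell (24.8% and 20.6% of all genes tested). This role holds the Cyp2j and Cyp4 genes and *Cyp2u1*. Other epoxygenases, *Cyp2b19* and the Cyp2c genes, are counted in family 2 below, and none of those tested passed the threshold. Their LFC were -0.78 (*Cyp2b19*), -1.28 (*Cyp2c29*), -2.07 (*Cyp2c55*, a sign that rested on WT3) and 0.48 (*Cyp2c44*). *Cyp4f14*, a leukotriene and fatty acid omega-hydroxylase (chr17:32903357-32917376), had 15, 20 and 16 counts in WT1 to WT3 and 29, 56 and 45 in KO1 to KO3. Its level was 0.988 ± 0.252 CPM in WT and 2.33 ± 0.803 in KO (SD, n = 3), an LFC of 1.24 (SE 0.31, adjusted p = 0.00781, edgeR). Every KO library lay above every WT library, with KO1 the lowest of the KO libraries.

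*Cyp4f15* (chr17:32685631-32703352), of the same omega-hydroxylase family, had WT counts of 14, 8 and 18 and KO counts of 26, 31 and 41, an LFC of 1.19 (SE 0.31, adjusted p = 0.00921, edgeR). *Cyp4f13* (chr17:32924688-32947415) had WT counts of 40, 29 and 53 and KO counts of 60, 89 and 85, an LFC of 0.84 (SE 0.23, adjusted p = 0.0126). The groups did not overlap in CPM for either gene, though KO1 and WT3 of *Cyp4f13* were close, at 60 and 53 counts. In DESeq2 with the block the adjusted p was 0.0883 for *Cyp4f15* and 0.0624 for *Cyp4f13*. Without KO2 or without WT2, the adjusted p of *Cyp4f13* was 0.0532 and 0.0552.

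These 3 genes follow each other in the order of the Cyp4f genes described here, but not at even distances. The P450 genes described here include 8 Cyp4f genes on chromosome 17, in the order *Cyp4f39*, *Cyp4f17*, *Cyp4f16*, *Cyp4f37*, *Cyp4f40*, *Cyp4f15*, *Cyp4f14* and *Cyp4f13* along 494.7 kb. *Cyp4f15*, *Cyp4f14* and *Cyp4f13* are the last in that order and span 261.8 kb, and the 3 genes tested toward the other end did not pass the threshold. *Cyp4f15* (32685631 to 32703352) lies nearer to the untested *Cyp4f40*, which ends at 32676919, than to *Cyp4f14*, which starts at 32903357. *Cyp4f39*, a skin omega-hydroxylase of very long fatty acids, had WT counts of 536, 468 and 555 and KO counts of 567, 531 and 471, an LFC of -0.10 (SE 0.08, adjusted p = 0.361). Per kb of exon it was the most abundant of the 28 genes in WT, at 11.3 ± 0.574 CPM per kb (SD, n = 3), next to *Cyp2d26* at 10.8 ± 0.386, and these levels differed by less than their combined spread. *Cyp4f37* (65, 40 and 61 counts in WT, 38, 62 and 59 in KO) and *Cyp4f16* (9, 8 and 14 in WT, 7, 12 and 13 in KO) overlapped between groups, with LFC of -0.16 (SE 0.23) and -0.06 (SE 0.38). They share 19.7% and 17.4% of their 50-base windows with other genes, mostly each other, so reads can be split between them. For the 3 genes that rose the shared part was 1.11% to 2.39%.

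**Figure D2:**
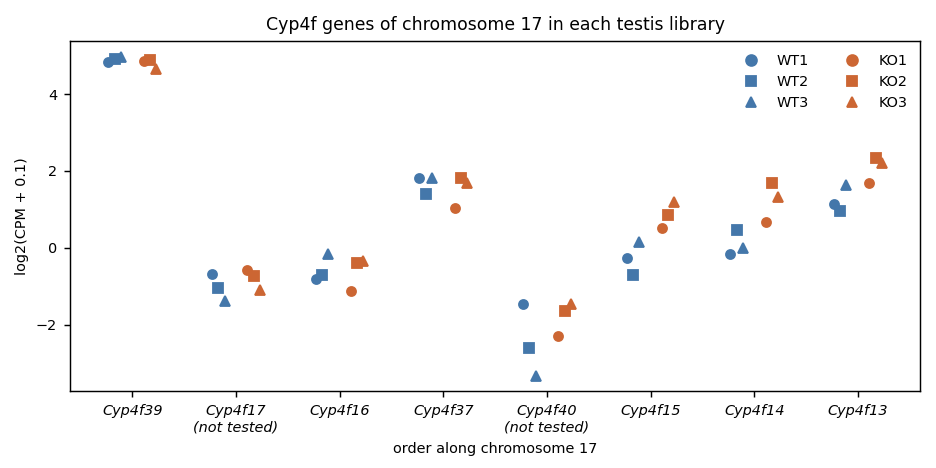
Level of the 8 Cyp4f genes of chromosome 17, as log2(CPM + 0.1), in each of 3 WT (blue) and 3 MLX KO (orange) testis libraries, in their order along the chromosome. KO points lie above WT points for *Cyp4f15*, *Cyp4f14* and *Cyp4f13*, and overlap them for the other genes drawn. *Cyp4f17* and *Cyp4f40* had too few counts to be tested.

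*Cyp2j6*, an epoxygenase of arachidonic acid (chr4:96516138-96564305), had WT counts of 24, 19 and 27 and KO counts of 39, 51 and 50, an LFC of 0.90 (SE 0.23, adjusted p = 0.00778, edgeR; 0.127 with the block in DESeq2). *Cyp4v3*, a fatty acid omega-hydroxylase known from the retina (chr8:45305801-45333163), had WT counts of 25, 14 and 23 and KO counts of 36, 52 and 38, an LFC of 0.92 (SE 0.26, adjusted p = 0.0139). No KO library of either gene overlapped WT. *Cyp4v3* was the less firm call. Its adjusted p was 0.152 in DESeq2 with the block, 0.051 in DESeq2 without it, 0.0708 without KO2 and 0.0597 without WT2. It also overlaps *Gm30504* on the opposite strand, whose reads could not be told apart because the sources do not state that strand was used in counting. *Cyp2u1*, a fatty acid hydroxylase, had 53 to 90 counts in WT and 57 to 70 in KO (LFC -0.13, SE 0.19, adjusted p = 0.602). The 13 untested genes of this role reached 12 counts at most. Those with at least 5 in a library were *Cyp2j9*, *Cyp4a14*, *Cyp4a29*, *Cyp4b1*, *Cyp4f17*, *Cyp4f18* and *Cyp4f40*. *Cyp4a14*, a known target of the fatty acid receptor *Ppara*, had WT counts of 3, 1 and 3 and KO counts of 4, 5 and 9, and its CPM did not overlap (0.064 to 0.169 in WT, 0.206 to 0.476 in KO), at levels too low for the test. Of all 42 untested P450 genes, 2 had groups that did not overlap. The other was *Cyp2c66*, lower in KO (0.282 to 0.382 CPM in WT, 0.052 to 0.221 in KO). *Cyp4f18* had 11 counts in KO1 and 1 or 2 in each other library.

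Among 6 bile acid and oxysterol genes, 3 were tested and *Cyp27a1* rose (24.8% of all genes tested were higher). *Cyp27a1*, the mitochondrial sterol hydroxylase that makes oxysterols and starts the acidic pathway of bile acids (chr1:74713148-74737897), had WT counts of 100, 77 and 116 and KO counts of 182, 243 and 220. That was 5.57 ± 0.862 CPM in WT and 11.5 ± 2.03 in KO (SD, n = 3), an LFC of 1.04 (SE 0.16, adjusted p = 4.16e-04, edgeR), the smallest adjusted p among the P450 genes tested. The KO libraries were all well above WT, and the LFC stayed between 0.92 and 1.18 in the 14 alternatives. *Cyp46a1*, the cholesterol hydroxylase of neurons, had WT counts of 175, 168 and 187 and KO counts of 153, 138 and 176 (LFC -0.29, SE 0.12, adjusted p = 0.0657). Its groups overlapped in CPM, and it was past the threshold, lower in KO, with DESeq2 size factors (adjusted p = 0.0453) and without KO3 (0.0420). *Cyp39a1*, an oxysterol hydroxylase, had 129 to 189 counts in WT and 170 to 193 in KO (LFC 0.08, SE 0.11, adjusted p = 0.574). Other bile acid enzymes known from liver had few counts: *Cyp7a1* had 1 to 6 counts in WT and 2 to 14 in KO, *Cyp7b1* 2 to 4 in WT and 4 to 11 in KO, and *Cyp8b1* at most 1 in any library.

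Of 4 steroid hormone genes kept by the rule, 2 were tested and *Cyp21a1* rose (24.8% of all genes tested were higher). *Cyp21a1*, the steroid hydroxylase that the adrenal cortex needs for corticosterone and aldosterone (chr17:34801348-34804426), had 46, 63 and 82 counts in WT1 to WT3 and 97, 314 and 379 in KO1 to KO3. Its level was 3.69 ± 1.13 CPM in WT and 14.1 ± 8.03 in KO (SD, n = 3), an LFC of 1.95 (SE 0.43, adjusted p = 0.00364, edgeR), the highest LFC of the 28 genes. The increase was uneven: KO2 and KO3 stood far above WT, and KO1 lay just above WT3. The gene shares 21.3% of its 50-base windows with *Cyp21a2-ps*, a pseudogene copy, and overlaps *Tnxa* on the opposite strand, so its count is uncertain to that extent. *Cyp19a1*, the aromatase that makes estrogen, had WT counts of 102, 71 and 103 and KO counts of 72, 96 and 75, with overlapping groups (LFC -0.28, SE 0.17, adjusted p = 0.212). The adrenal enzymes of corticosterone and aldosterone synthesis, *Cyp11b1* and *Cyp11b2*, had 1 to 4 counts in every library.

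None of the 3 vitamin D and retinoic acid genes tested passed the threshold in edgeR, where none of the 3 had an unadjusted p under 0.05, nor did any in DESeq2. *Cyp2r1*, which makes the circulating form of vitamin D, had WT counts of 91, 69 and 67 and KO counts of 108, 109 and 71 (LFC 0.24, SE 0.19, adjusted p = 0.324). *Cyp24a1*, which inactivates vitamin D, had 12 to 19 counts in WT and 12 to 17 in KO (LFC -0.18, SE 0.33, adjusted p = 0.688). *Cyp26a1*, a hydroxylase that clears retinoic acid, had WT counts of 26, 26 and 32 and KO counts of 23, 18 and 31 (LFC -0.33, SE 0.26, adjusted p = 0.328). The groups overlapped for all 3. Of the untested genes, *Cyp27b1*, which activates vitamin D, had 2 to 7 counts, and *Cyp26c1* at most 1.

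Among xenobiotic enzymes of family 1, *Cyp1b1* was the gene with enough counts. It acts on estrogens and polycyclic hydrocarbons (chr17:79706940-79715061), and had WT counts of 344, 290 and 351 and KO counts of 385, 429 and 466, 18.8 ± 0.881 and 22.8 ± 2.55 CPM (SD, n = 3). The LFC was 0.28 (SE 0.09, adjusted p = 0.0325, edgeR), the smallest change among the genes past the threshold, with KO1 only slightly above WT3. This call was lost in DESeq2 with the block (adjusted p = 0.207) and without it (0.104), and when KO2 (0.0941), KO3 (0.119), WT1 (0.0996) or WT2 (0.0954) was left out. *Cyp1a1*, the classical *Ahr* target, had at most 2 counts in any library, and *Cyp1a2* had 2 to 6.

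Of 22 xenobiotic genes of family 2, 9 were tested, *Cyp2d22* rose and *Cyp2a12* fell. Both counts were below the shares of all genes tested, 24.8% higher and 20.6% lower. *Cyp2d22*, a drug-metabolizing enzyme of the family of human CYP2D genes (chr15:82370527-82380260), had WT counts of 105, 97 and 119 and KO counts of 144, 170 and 189, an LFC of 0.54 (SE 0.14, adjusted p = 0.00932, edgeR; 0.0697 with the block in DESeq2). Its KO libraries were all above WT. Its relative *Cyp2d26* had WT counts of 401, 322 and 390 and KO counts of 528, 369 and 381, with KO1 the highest of the 6 libraries and an LFC of 0.09 (SE 0.11, adjusted p = 0.527).

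*Cyp2a12*, which hydroxylates steroids and bile acids in mouse liver (chr7:27029090-27036818), had WT counts of 103, 75 and 107 and KO counts of 75, 65 and 66. In CPM this was 4.77 to 6.03 in WT and 3.49 to 3.87 in KO, without overlap. The LFC was -0.57 (SE 0.15, adjusted p = 0.00966, edgeR; 0.104 with the block in DESeq2). The gene shares 20.1% of its windows with *Cyp2a22* and overlaps *Gm51444* on the opposite strand. *Cyp2f2*, a lung enzyme that activates naphthalene, had WT counts of 17, 5 and 14 and KO counts of 20, 24 and 28, an LFC of 0.90 (SE 0.35, adjusted p = 0.0543). Its groups did not overlap in CPM, and it passed the threshold with the block in edgeR (adjusted p = 0.0453, against 0.268 in DESeq2 with the block), with library size alone (0.0367), without KO1 (0.0396) and without WT1 (0.0468). *Cyp2s1* had 18 to 21 counts in WT and 21, 36 and 42 in KO (LFC 0.64, SE 0.29, adjusted p = 0.0968), and its LFC was 0.90 without KO1 (adjusted p = 0.00961). *Cyp2b19*, an epoxygenase of skin, had 9 to 14 counts in WT and 3 to 11 in KO (LFC -0.78, SE 0.45, adjusted p = 0.178).

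**Figure D3:**
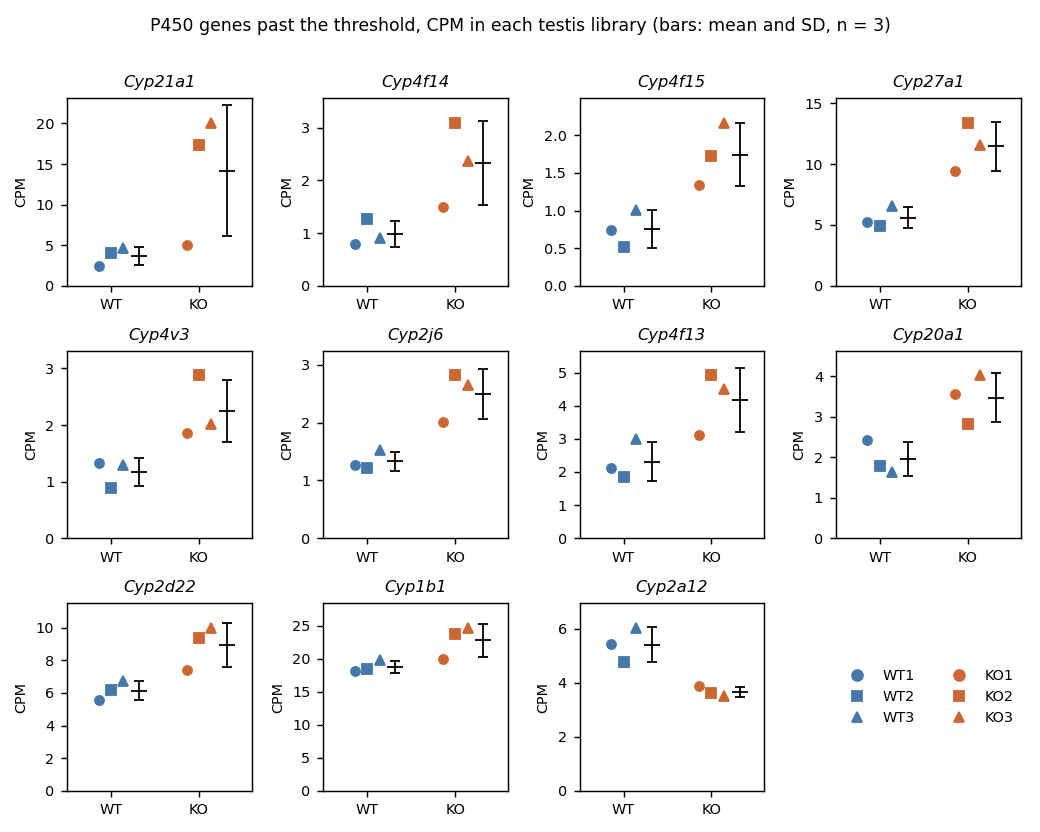
CPM of the 11 P450 genes past the threshold in each WT (blue) and MLX KO (orange) testis library, with mean and SD (n = 3), each panel starting at 0. The groups do not overlap in any panel. KO1 (orange circle) is the lowest KO library in 9 of the 10 genes that rose.

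The Cyp2c genes encode epoxygenases and drug-metabolizing enzymes of liver and gut. *Cyp2c55*, which stood out by 1 library, had 13, 11 and 202 counts in WT1, WT2 and WT3 and 14, 17 and 26 in KO1, KO2 and KO3. WT3 was thus far above the other 5 libraries, which lay between 11 and 26. The LFC was -2.07 (SE 0.91, adjusted p = 0.0844) with WT3 and 0.54 without it, so its sign was that of WT3. Leaving out WT1 or WT2, or adding the block in edgeR, put the gene past the threshold as lower in KO (adjusted p = 0.0219, 0.0349 and 0.0114), with WT3 still in each fit, and in DESeq2 with the block the adjusted p was 0.576.

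*Cyp2c29* had WT counts of 11, 9 and 28 and KO counts of 4, 11 and 6, again with WT3 the highest, an LFC of -1.28 (SE 0.52, adjusted p = 0.0657). It was past the threshold without WT1 (adjusted p = 0.0455), without KO2 (0.0437) and with the block in edgeR (0.0336, against 0.241 in DESeq2 with the block). *Cyp2c39* had 4 counts in WT3, 1 in WT2 and 0 in the other libraries. WT3 was not high for all of the subfamily. *Cyp2c44* had WT counts of 31, 16 and 25 and KO counts of 35, 45 and 27 (LFC 0.48, SE 0.28, adjusted p = 0.182), *Cyp2c65* 7 to 11 in WT and 6 to 17 in KO, and *Cyp2c66* 5 or 6 in WT and 1 to 4 in KO.

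**Figure D4:**
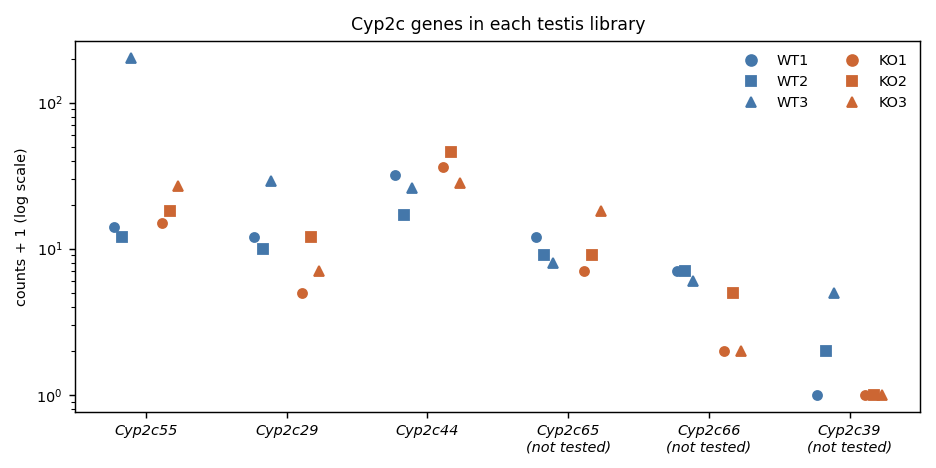
Counts plus 1, on a log axis, of 6 Cyp2c genes in each WT (blue) and MLX KO (orange) testis library. WT3 (blue triangle) has 202 counts of *Cyp2c55* and is also highest for *Cyp2c29* and *Cyp2c39*, but not for *Cyp2c44*, *Cyp2c65* or *Cyp2c66*.

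The other untested genes of family 2 that reached 5 counts were *Cyp2b10*, *Cyp2b23* and *Cyp2e1*. *Cyp2e1*, an ethanol-oxidizing enzyme of liver and fat, had WT counts of 2, 5 and 7 and KO counts of 1, 10 and 35. The 6 fat cell markers did not share 1 pattern. *Fabp4* had WT counts of 0, 4 and 27 and KO counts of 4, 23 and 43, and *Cfd* 4, 2 and 29 in WT and 0, 20 and 26 in KO, so both were low in KO1 and higher in KO2, KO3 and WT3. *Cidec* had WT counts of 10, 5 and 13 and KO counts of 2, 12 and 27, and *Retn* 11, 11 and 22 in WT and 12, 21 and 27 in KO. *Plin1* was highest in KO1, with WT counts of 36, 17 and 23 and KO counts of 61, 57 and 40, and *Adipoq* had 97 to 125 in WT and 71 to 80 in KO. The 6 summed to 8.65 to 13.5 CPM in WT and 8.20 to 12.4 in KO. Their part in the *Cyp2e1* counts was not tested. Without KO1, *Cyp2e1* had enough counts to be tested and was called higher. The 4 genes of family 3, the main drug-metabolizing enzymes of liver, were all untested, with 10 counts at most. *Cyp3a44* and *Cyp3a57* reached 10 and 8 counts, and *Cyp3a11* and *Cyp3a13* had at most 1.

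Of 4 P450 genes without a role assigned, *Cyp20a1* was tested and rose. *Cyp20a1* is an orphan P450 with no known substrate in vivo (chr1:60343300-60388060). It had WT counts of 46, 28 and 29 and KO counts of 69, 51 and 76, an LFC of 0.82 (SE 0.22, adjusted p = 0.00993, edgeR; 0.0916 with the block in DESeq2), and every KO library lay above WT. *Cyp2ab1*, *Cyp2t4* and *Cyp2w1* had at most 3 counts.

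KO1 was the lowest KO library for 9 of the 10 P450 genes that rose, all but *Cyp20a1*, and for 71.9% of the 3634 genes that rose in all. KO1 also stood apart over the whole table, with a chi-square per degree of freedom of 7.91 and 7.92 against KO2 and KO3, and 2.66 between those 2. Without KO1, 13 P450 genes were higher and 1 lower, beside 3990 and 3405 of 14787 genes in all. The summed level of 8 Leydig cell markers was 655 to 727 CPM in WT and 1386, 1897 and 1696 CPM in KO1, KO2 and KO3, with all 8 genes higher in KO and a median LFC of 1.04. Sertoli cell markers summed to 885 to 935 CPM in WT and 1365, 1650 and 1629 in KO (9 of 9 tested higher), and macrophage markers to 76 to 79.7 in WT and 146, 153 and 148 in KO (8 of 8 tested higher). Markers of elongating spermatids fell, from 26635 to 27528 CPM in WT to 19603, 17143 and 16240 in KO (9 of 9 lower), and those of spermatocytes from 1646 to 1695 CPM to 1439 to 1509 (6 of 8 lower). KO1 thus lay nearest to WT in the sums of Leydig, Sertoli and spermatid markers, as it did for most P450 genes that rose. Over all genes tested, 24.8% were higher and 20.6% lower. In whole tissue, fewer cells of a type and less RNA per cell cannot be told apart. The part of these cell types in the P450 values was not tested.

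Markers of liver, epididymis and fat were low or mixed. Of 6 liver markers, 1 had enough counts, *Apoa2*, which fell (10 to 51 counts in WT, 6 to 11 in KO), and *Alb* and *Apoa1* had at most 4 counts in any library. Of the epididymis markers, *Eppin* rose (LFC 0.92) and *Rnase10* fell (LFC -0.68), and *Lcn9*, *Crisp1*, *Rnase9* and *Cst11* had at most 4 counts. Among 6 fat markers *Plin1* rose (LFC 0.96) and *Adipoq* fell (LFC -0.72). Endothelial markers were not mixed: of 6, 2 rose and 0 fell, with LFC from 0.24 (*Tie1*) to 2.05 (*Kdr*). They summed to 15.7 to 18.8 CPM in WT and 30.3 to 34.1 in KO.

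Genes that act with P450 enzymes were read from 4 lists of partners, receptors and neighboring pathway enzymes. Of 26 tested, 16 rose and 1 fell, where 24.8% of all genes tested were higher and 20.6% lower. The lists were chosen with earlier results of these data known. Among electron donors and heme partners, 6 of 8 tested rose and 1 fell, with a median LFC of 0.57. *Por*, which feeds electrons to all P450 enzymes of the endoplasmic reticulum, had WT counts of 428, 348 and 399 and KO counts of 565, 766 and 648, an LFC of 0.65 (SE 0.12, adjusted p = 0.00103, edgeR). *Fdxr* and *Fdx1*, the chain that serves mitochondrial enzymes such as *Cyp27a1*, rose with LFC of 0.84 (SE 0.12) and 0.50 (SE 0.08). *Cyb5r3* and *Cyb5b* of the cytochrome b5 system rose with LFC of 0.74 and 0.42. *Pgrmc1*, a heme-binding partner of P450 enzymes, had 1981 to 2269 counts in WT and 3367 to 4223 in KO (LFC 0.74, SE 0.09, adjusted p = 9.06e-05). Its relative *Pgrmc2* fell (LFC -0.18, SE 0.05, adjusted p = 0.0160), a call that was lost with library size alone (LFC -0.04, adjusted p = 0.526), without KO3 (0.0830) and without WT2 (0.0701). *Fdx1l* did not pass the threshold (LFC -0.34, SE 0.25, adjusted p = 0.289).

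Of the receptors that control P450 genes, 4 of 10 tested rose (24.8% of all genes tested). *Nr1h4*, the bile acid receptor FXR, had WT counts of 5, 2 and 1 and KO counts of 23, 34 and 23, an LFC of 3.17 (SE 0.46, adjusted p = 3.04e-04, edgeR), at low levels of 0.149 ± 0.105 CPM in WT and 1.43 ± 0.392 in KO (SD, n = 3). *Ppara* had 68 to 79 counts in WT and 112, 160 and 163 in KO (LFC 0.91, SE 0.18, adjusted p = 0.00165). The vitamin D receptor *Vdr* and the shared partner *Rxra* rose with LFC of 0.61 (SE 0.08) and 0.36 (SE 0.07). For *Ahr*, the receptor that induces genes of family 1, the LFC was 0.50 (SE 0.20) at an adjusted p of 0.0651, and for its partner *Arnt* 0.08 (adjusted p = 0.404). Both passed the threshold with library size alone (0.0278 and 0.0394), as did *Rxrb* (0.0178), while *Ahr* also did so without KO1 (0.0484). The oxysterol receptors *Nr1h2* and *Nr1h3* did not pass it (LFC -0.02 and -0.14), nor did *Rxrg* (LFC -0.36, adjusted p = 0.221). The liver regulators *Nr1i2*, *Nr1i3* and *Hnf4a*, and *Ahrr*, had too few counts to be tested.

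Epoxide hydrolases, which open the epoxides that P450 enzymes make, gave the highest median LFC of the 4 lists, 1.32 over 3 genes. *Ephx1* had WT counts of 1537, 1218 and 1119 and KO counts of 3185, 3412 and 3763, an LFC of 1.32 (SE 0.09, adjusted p = 4.16e-06, edgeR). *Ephx2*, which hydrolyzes the epoxides of arachidonic acid, had WT counts of 21, 27 and 21 and KO counts of 53, 68 and 68 (LFC 1.34, SE 0.23, adjusted p = 9.67e-04). *Ephx4* did not pass the threshold (LFC 0.24, SE 0.15, adjusted p = 0.232).

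Of the oxysterol and bile acid enzymes outside the P450 family, 4 of 5 tested rose (24.8% of all genes tested). *Hsd3b7*, which follows *Cyp27a1* and *Cyp7b1* in the oxysterol route to bile acids, had WT counts of 54, 38 and 41 and KO counts of 101, 129 and 138, an LFC of 1.37 (SE 0.18, adjusted p = 1.79e-04, edgeR). *Amacr*, a racemase for bile acid intermediates and branched fatty acids, rose with an LFC of 1.17 (SE 0.15, adjusted p = 1.23e-04). *Scp2* and *Hsd17b4*, of peroxisomal side-chain shortening, rose less, with LFC of 0.33 (SE 0.06) and 0.22 (SE 0.05), the latter with an adjusted p of 0.125 when the pair was a block in DESeq2. *Slc27a2* did not pass the threshold (LFC 0.04, SE 0.34, adjusted p = 0.933). The plot of partner genes shows the 26 values together.

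**Figure D5:**
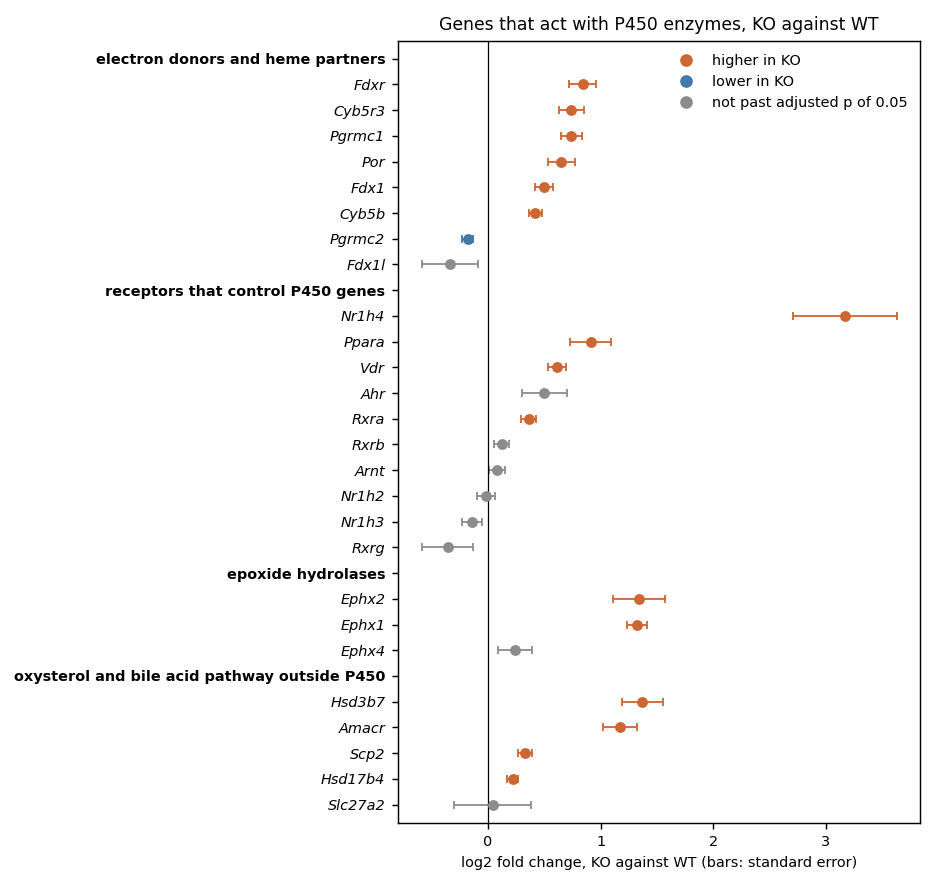
LFC of the 26 tested genes that act with P450 enzymes, MLX KO against WT whole testes (n = 3 each), by list. Points are the LFC and bars its standard error, colored as in the plot of P450 genes. *Nr1h4* lies farthest from 0, at 3.17, and *Pgrmc2* is the gene that fell.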

How the data were processed

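RNA was extracted with Trizol from whole testes and sequenced as paired-end reads. The authors aligned reads to mm10 with TopHat and deposited whole-number counts per gene symbol, not normalized. The counting tool, the annotation and any use of strand are not given in the sources used here. The deposited table also holds the authors' comparison of KO with WT (mean, fold change, standard error, statistic and p-values), which was not used. Of 17933 rows, 2 repeated another row and were used once.

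Genes were tested with edgeR 4.0.16 in R 4.3.3: filterByExpr at its minimum of 10 counts, TMM factors (0.943 to 0.961 in WT, 1.02 to 1.07 in KO), genotype as the only term, the quasi-likelihood test (two-sided) and Benjamini-Hochberg adjustment over 14640 genes. CPM were computed with TMM-adjusted library sizes, and CPM per kb with RefSeq exon length. DESeq2 1.42.0 was an alternative. The alternatives were DESeq2, a block for the littermate pair in either tool, DESeq2 size factors, library size alone, upper-quartile factors, no filter, 1 CPM in 3 libraries, and each library left out. Library size alone shifted the median LFC of all genes by 0.14.

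The titles call the samples paired replicates and the study used littermate pairs, so equal numbers mark a pair. Deviations from the group means correlated across genes at 0.145, 0.0363 and 0.121 for equal numbers and at most at 0.0330 for others. The deviations cancel within each group, so a higher value for equal numbers goes with lower ones for others. The correlations are therefore no separate check of the pairing. Libraries of a genotype differed by more than sampling noise. The p-values set the difference between genotypes beside the spread between these animals, which was estimated with the help of other genes. The main fit did not use the pairs.

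Coordinates are RefSeq GRCm38.p6, in which 69 of the 70 symbols matched as current and 1 (*Cyp2c44*, now *Cyp2c23*) as an older symbol. Shared sequence was the percent of 50-base windows of a gene's GENCODE transcripts also found in another gene. The P450 genes, roles and lists were chosen with earlier results of these data known. Every P450 gene past the threshold is named with all counts, the other tested ones within their role, and untested ones where they reached 5 counts. Partner genes past the threshold are named. Others were named after their values were seen. On simulated data with 200 changed genes, edgeR recovered 187 of them among 14691 tested and called 9 unchanged genes. The simulation used a fixed dispersion and a single size of change, balanced in direction, in genes over 1 CPM. In the data 6649 genes were called, so the simulation does not measure recovery or false calls there. The ChIP-Seq samples were not analysed here.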

Additional observations from a re-analysis of the deposited data

How the results depend on the processing

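Of the 11 P450 genes past the threshold, none changed direction in any of 14 alternatives, and 136 of 154 gene-by-alternative results kept their call and 18 fell short of the threshold. Of the tested P450 genes not past it, 208 of 231 results stayed so, 13 passed it and 10 changed sign, and of the partner genes 350 of 364 stayed the same, 4 fell short, 4 passed and 6 changed sign. With the replicate block in DESeq2 the counts of P450 genes were 3 higher and 0 lower, and with it in edgeR 3 were lower. With DESeq2 size factors 2 were lower, beside 3411 of 14640 genes in all, against 3015 with TMM. Leaving out 1 library gave 7 to 13 genes higher and 1 to 3 lower, and 5130 to 7395 genes called in all. With no filter, the same 11 genes were called. Library size alone gave 5343 genes higher and 1268 lower in all, against 3634 and 3015 with TMM. The cause of these differences was not tested.

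Sign changes were seen for genes with LFC near 0 or few counts, and for *Cyp2c55*, whose LFC of -2.07 rested on WT3. With library size alone the LFC was 0.01 for *Cyp2u1*, 0.08 for *Cyp4f16*, 0.04 for *Cyp4f39* and 0.12 for *Nr1h2*. Leaving out 1 library gave LFC from -0.32 to 0.13 for *Cyp24a1* (above 0 without WT2), from -2.60 to 0.54 for *Cyp2c55* (above 0 without WT3), from -0.06 to 0.18 for *Cyp2d26* (below 0 without KO1) and from -0.23 to 0.06 for *Cyp2u1* (above 0 without WT1). The range was -0.21 to 0.21 for *Cyp4f16* (0.19 without KO1, 0.21 without WT3), -0.31 to 0.06 for *Cyp4f37* (above 0 without KO1), -0.07 to 0.06 for *Nr1h2* (0.03 without KO3, 0.06 without WT3) and -0.19 to 0.54 for *Slc27a2* (-0.13 without KO1, -0.12 without WT2, -0.19 without WT3).

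Depth limits the 42 untested P450 genes, which had 0 to 35 counts in a library, 21 of them never above 3. With 3 libraries a group, an exact permutation test of a single gene that ignores the pairs could not go below p = 0.1. A permutation that keeps the pairs has fewer arrangements. Of the 70 genes, 19 share over 10% of their 50-base windows with another gene, 4 of them tested.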

Other observations

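The high WT3 value of *Cyp2c55* was compared with all other genes, a step chosen after its counts were seen. Genes with at least 60 counts in 1 library and over 5 times the highest count of every other library were 2 in WT3, *Cyp2c55* and *A530064D06Rik*, 2 in WT1, *Hapln1* and *Ptpro*, and 0 in each of the other libraries, by direct count and with no test. *A530064D06Rik* had 2, 3 and 100 counts in WT1 to WT3 and 2, 2 and 1 in KO1 to KO3.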
